A study of Homo sapiens with 7 samples.

Results

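The 40 genes described here encode nucleolar factors that build ribosomes, and they were followed through 6 chromatin immunoprecipitation sequencing (ChIP-seq) libraries from DLD-1 cells, an established human colon adenocarcinoma line. They were taken from a fixed list of 40 symbols among 20037 annotated protein-coding genes. A peak was assigned to a gene when its centre lay inside the gene span or within 5000 bp of it. The cells carried MycER, a retrovirally delivered fusion of MYC that 4-hydroxytamoxifen switches on through its estrogen receptor part. MYC was profiled in 2 libraries from cells after 8 hr of activation with 500 nM of the inducer. ATF4, which directs transcription in the integrated stress response, was profiled in 2 libraries from such activated cells and in 2 libraries from control cells, whose chromatin came from vehicle treatment per the labels' protocol. All groups carried MycER, and none received the inducer without it, so an effect of the inducer and that of MYC activation cannot be told apart. The MYC antibody's labels do not separate MycER from the MYC of the cells themselves, and both cannot be told apart here. The samples held no MYC library from control cells, so whether any MYC peak depends on activation was not tested. The 1 IgG sample was not analysed here. Nothing in the labels ties the replicates to separate cultures, so p-values and SDs measure only the spread between these libraries, which may be technical.

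Ribosome production starts in the nucleolus, where ribosomal RNA is transcribed, chemically modified by small nucleolar ribonucleoproteins (snoRNPs), cut and folded, and joined to ribosomal proteins. Small and large subunits mature along separate lines of assembly factors before they leave for the cytoplasm. MYC binds DNA together with MAX, prefers the sequence CACGTG, called an E-box, and is known for driving genes of ribosome production in growing cells.

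The E-box is shown first, because it was the sequence feature that many of these genes shared at their start. RefSeq promoters (build GRCh38.p14, 250 bases before to 50 after the annotated start) were matched by gene ID for 34 of the 40 genes. CACGTG, which reads the same on both strands, occurred in 14 of 34 promoters (41.2%), against 262 of 1737 promoters of genes with a MYC peak near the start in both libraries (15.1%) and 1407 of 15842 promoters of all genes with an entry (8.88%). The sites below were chosen to span the MYC signal of the genes with an E-box, from NAT10, the strongest, to UTP4, the weakest, and the E-box is in capitals.
NAT10: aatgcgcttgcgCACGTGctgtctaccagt
PES1: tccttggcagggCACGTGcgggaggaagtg
BYSL: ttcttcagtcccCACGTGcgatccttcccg
NOP10: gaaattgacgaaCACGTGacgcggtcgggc
RRP9: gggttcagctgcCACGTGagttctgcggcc
FBL: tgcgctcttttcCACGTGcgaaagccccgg
UTP4: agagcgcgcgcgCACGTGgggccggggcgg
These windows lie at chr11:34105602-34105631 on the plus strand for NAT10, chr22:30591880-30591909 on the minus strand for PES1, chr6:41921515-41921544 on the plus strand for BYSL and chr15:34343130-34343159 on the minus strand for NOP10. Those of RRP9, FBL and UTP4 lie at chr3:51941892-51941921 (minus), chr19:39846356-39846385 (minus) and chr16:69132621-69132650 (plus).

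The E-boxes sat close to the start. Counting the first transcribed base as 1 and the base before it as -1, 14 of the 15 copies in these promoters began between positions -16 and 36. Over all promoters, 421 of 1590 copies (26.5%) began within 36 bp of the start. The 36 bp limit is the largest distance among those 14 copies and was set after seeing them, so the shares are a description and not a comparison. The 15th copy was a second one in NOP10, at position -170. In MYC replicate 2, 11 of the 15 copies lay within 100 bp of a peak centre, with a median distance of 58 bp and a range of 4 to 289 bp. The copies of RRP9 and of NOP10 at position -11 were each 4 bp from a peak centre, and that of BYSL was 5 bp away. Many of the peaks were themselves centred near the start, 19 of 33 strongest peaks within 100 bp of it. Copies and peaks can thus be close because both lie there, and no such distances are given for all genes. Whether MYC sat on these E-boxes was not tested.

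Genes with an E-box in the searched promoter did not have the higher MYC signals as a group. The signal is the authors' normalized tag count, scaled to 10 M tags per library (M, mega) and called tags here. In replicate 2 the strongest peak had a median of 9.99 tags (4.19 to 39.7) at the 14 genes with an E-box and of 16.2 tags (4.19 to 33.7) at the 19 of 20 genes without one that had a peak, and the ranges overlap widely. Some strongest peaks of both kinds of gene lay outside the searched promoter. Examples are NPM1 (806 bp from its start) without an E-box, and WDR43 (766 bp) and NOP14 (25920 bp) with one. The sequence under the peaks was not searched, so whether an E-box at the peak goes with the signal was not tested. NAT10 and NOP16 show both cases among the strongest genes, and the 250 bases before their starts are printed for that reason, with the E-box of NAT10 in capitals.
NAT10: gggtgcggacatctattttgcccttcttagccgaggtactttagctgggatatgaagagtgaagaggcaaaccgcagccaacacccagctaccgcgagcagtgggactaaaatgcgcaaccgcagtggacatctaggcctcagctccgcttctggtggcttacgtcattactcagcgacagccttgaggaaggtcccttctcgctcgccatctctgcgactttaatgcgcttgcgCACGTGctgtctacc
NOP16: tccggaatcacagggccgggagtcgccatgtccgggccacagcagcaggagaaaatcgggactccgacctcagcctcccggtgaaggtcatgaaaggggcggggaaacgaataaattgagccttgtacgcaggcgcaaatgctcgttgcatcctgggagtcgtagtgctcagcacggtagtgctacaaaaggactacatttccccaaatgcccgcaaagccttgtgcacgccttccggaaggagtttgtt
They lie at chr11:34105379-34105628 (plus) and chr5:176388599-176388848 (minus). A related motif searched on both strands, CACGCG or its reverse complement CGCGTG, copies of which cannot overlap CACGTG, occurred in 12 of 34 promoters (35.3%), against 400 of 1737 (23%) for genes with a MYC peak near the start and 2349 of 15842 (14.8%) for all genes. The letters TGATGCAA or TTGCATCA, a site preferred by ATF4 with its partners, occurred in 0 of 34 promoters and in 106 of 15842 (0.669%) overall. The promoters had a median GC content of 65.2% over the 250 bases before the start (40.4 to 79.2%), against 63.2% for genes with a MYC peak near the start and 62.4% for all genes.

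MYC peaks were listed at most of these genes in both libraries, and at nearly all of them in replicate 2. In replicate 1, 30 of 40 genes had a MYC peak, against a background of 25.9% of all protein-coding genes. In replicate 2, 39 of 40 had one, against 54.5%. Both libraries had a peak at 30 genes (75%), where the background was 24.7% (4950 of 20037 genes). The libraries differ in depth, with 21 M and 50.1 M tags in replicates 1 and 2 as read from the steps between low tag counts, and their lists held 8636 and 22532 peaks with lowest values of 3.8 and 2.39 tags. In all, 38 peaks of replicate 1 and 54 of replicate 2 lay at these genes. As a check of the colon label, 6 of 13 colon epithelium markers had a MYC peak in both libraries (CDX1, CDX2, CDH1, KRT8, KRT18 and CDH17). VIL1, KRT19, GPA33 and HNF4A had one in replicate 2 only, and EPCAM, KRT20 and LGALS4 in neither. Blood and fibroblast markers had 0 of 8 and 1 of 6 in both libraries. Neural markers had 2 of 6, RBFOX3 and the astrocyte gene GFAP. Near the start, 0 of all these markers had a peak in both libraries, so peaks within spans are a weak check of cell type.

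**Figure D1:**
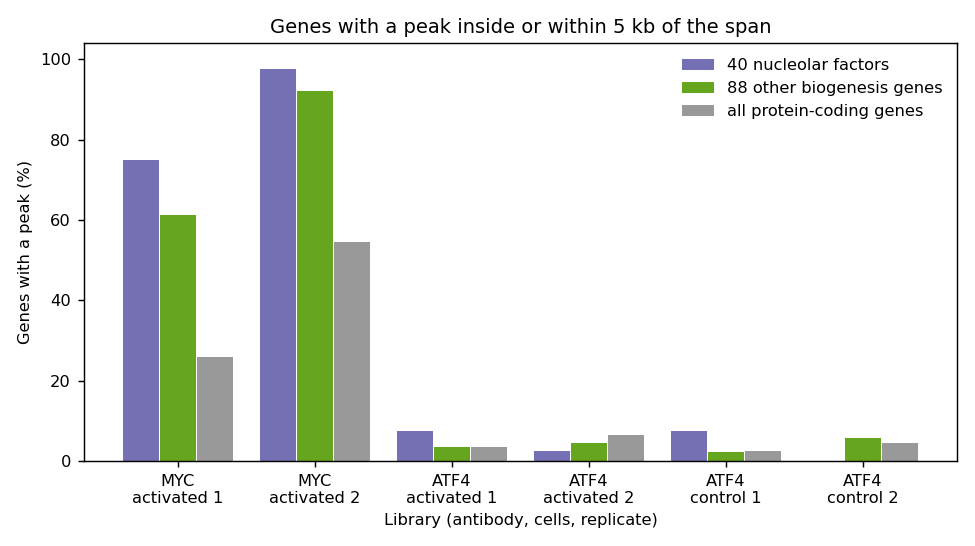
Share of genes (percent) with a peak inside or within 5000 bp of the span in each of the 6 libraries, for the 40 nucleolar factors, 88 other ribosome biogenesis genes and all 20037 protein-coding genes. The nucleolar factors stand at 75 and 97.5% in the MYC libraries, and their counts in the ATF4 libraries are 3, 1, 3 and 0 genes.

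The peaks lay at the start of the gene, a property that does not grow with gene length. Both libraries had a peak within 1000 bp of the annotated start (or of either span end where no start was given) at 28 of 40 genes, with a background of 10.5%. In replicate 1 there were 28 such genes (background 11.0%) and in replicate 2 there were 39 (background 30.8%). Of the 33 genes with an annotated start and a peak in replicate 2, the strongest peak was centred within 100 bp of the start at 19 (57.6%), against 889 of 8876 genes overall (10%). It lay downstream of the start at 29 genes and upstream at 4, with a median of 79 bp downstream. Over the 8876 genes it lay downstream at 5927 and upstream at 2941, with a median of 524 bp downstream. A downstream majority was thus not particular to these genes. The median span of these genes was 16702 bp, against 24115 bp for all genes.

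**Figure D2:**
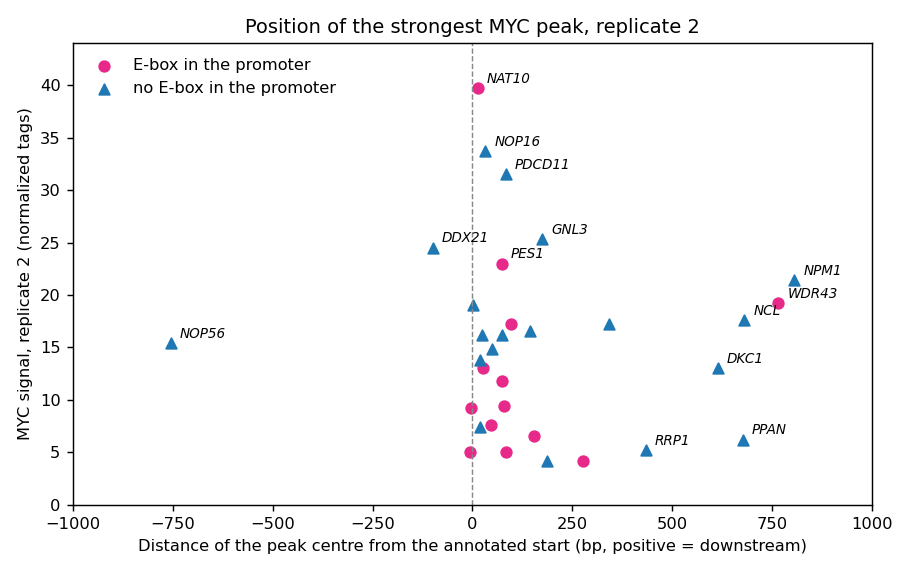
MYC signal of the strongest replicate 2 peak (vertical axis, normalized tags) against the distance of its centre from the annotated start (horizontal axis, bp, positive is downstream), 1 point per gene, for 32 genes within 1000 bp. Circles are genes with an E-box in the promoter and triangles genes without one; 19 points lie within 100 bp of the start, and the points of NPM1 (806 bp), WDR43 (766 bp), NCL (681 bp), PPAN (677 bp) and DKC1 (614 bp) lie farthest downstream.

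Where MYC was listed in both libraries, most of these genes stood in the upper part of the called genes. Over the 30 genes with a peak in both libraries, the mean of the 2 libraries at the strongest peak had a median of 13 tags (quartiles 9.72 and 16.8), against 7.88 tags (6.02 and 11) over the 4950 genes called by the same rule. Of the 30 genes, 26 were above the median of called genes, 21 were above its upper quartile and 4 were in the top 1%, namely NAT10, NOLC1, PDCD11 and NOP16. At least 10 tags in both libraries were reached by 11 of 40 genes, where the background was 3.57% of all genes. In replicate 2 alone, the deeper library, 27 genes reached it, but the share of all genes at that level was not computed. Among genes with a peak in both libraries, the replicate 2 median was 16.9 tags at these genes and 9.58 over all called. The fold over the background library at the strongest peak, the authors' own value, ran from 3.09 to 115.24 in replicate 1 and from 4.54 to 148.61 in replicate 2. The file headers do not name that background library, and the highest folds rest on very few background tags, 0.5 at PDCD11 in replicate 1 and 0.5 at GAR1 in replicate 2.

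**Figure D3:**
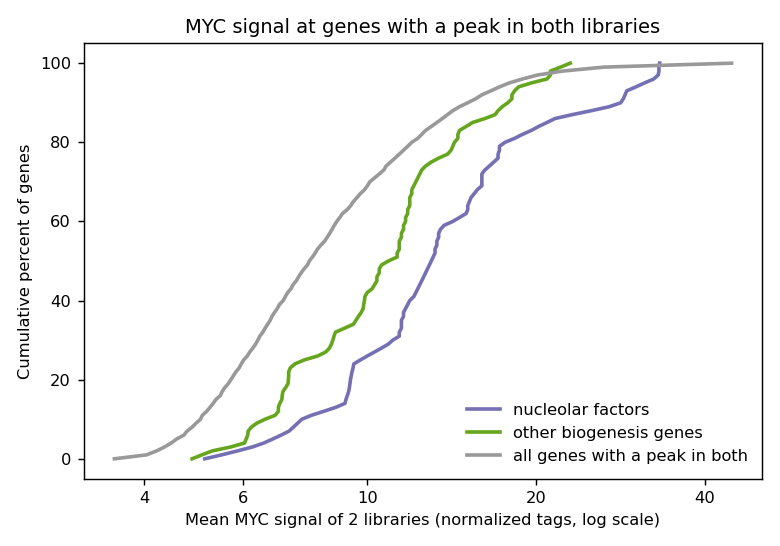
Cumulative percent of genes (vertical axis) by the mean MYC signal of the 2 libraries at the strongest peak (horizontal axis, normalized tags, log scale), for genes with a peak in both. The median is 13 tags for the nucleolar factors, 10.9 for other ribosome biogenesis genes and 7.88 for all genes called.

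Replicate 2 gave more tags than replicate 1 at all 30 genes with both, by a median of 1.66 times (1.18 to 3.63), and it did so at 4347 of the 4950 called genes, by a median of 1.45 times. The order of the genes was similar in both libraries (Spearman's rho 0.80 over 30 genes, and 0.75 over 4950, a description of libraries that differ in depth). The strongest peaks of the 2 libraries overlapped at 26 of the 30 genes, with centres at most 129 bp apart. The exceptions were BOP1, NOB1, TSR1 and MRTO4, and some other peak overlapped at 3 of these, all but BOP1.

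**Figure D4:**
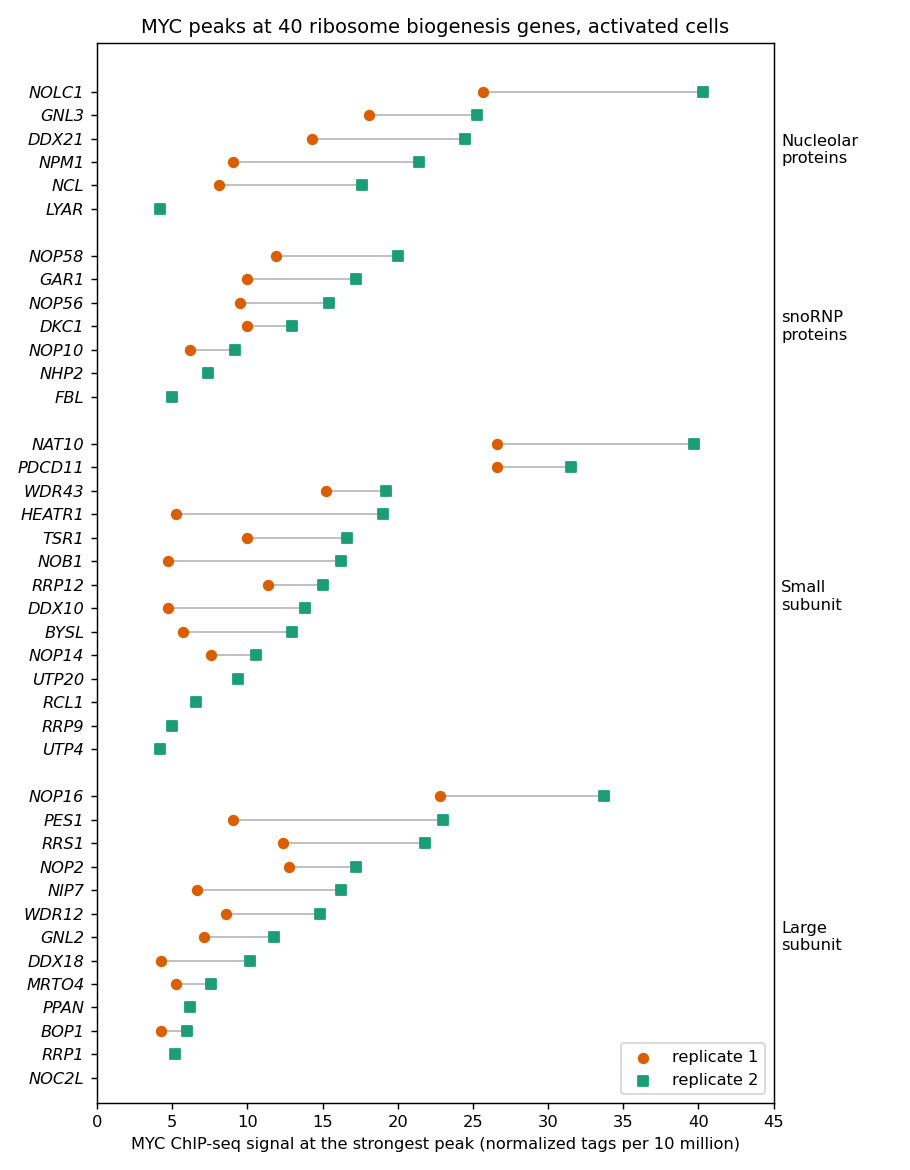
MYC signal at the strongest peak (horizontal axis, normalized tags) of each of the 40 genes in replicate 1 (circles) and replicate 2 (squares), by role and ordered by replicate 2; a gene without a symbol had no listed peak. NOLC1, NAT10, PDCD11 and NOP16 have at least 22.8 tags in both libraries, and NOC2L has no symbol.

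Abundant nucleolar proteins and their regulators had 5 of 6 genes with MYC in both libraries, at a median of 19.4 tags. NOLC1, a chaperone of snoRNPs, had 25.7 and 40.3 tags in replicates 1 and 2 (33 ± 10.3, SD, n = 2) inside the gene, with replicate 2 at chromosome 10, 102152695 to 102152871. That peak was the 9th of 22532 by tags in its list. GNL3, the nucleolar GTPase nucleostemin, had 18.1 and 25.3 tags (21.7 ± 5.09), 172 and 174 bp downstream of the start. DDX21, an RNA helicase of ribosomal RNA synthesis, had 14.3 and 24.5 tags (19.4 ± 7.21) just upstream of its start, with a second peak inside the gene of 8.08 and 17.8 tags at 444 and 493 bp.

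NPM1 and NCL, which encode the major nucleolar proteins nucleophosmin and nucleolin, had their peaks farther inside the gene. NPM1 had 9.03 and 21.4 tags at 844 and 806 bp downstream of its start, and NCL had 8.08 and 17.6 tags at 771 and 681 bp. Whether these positions are exonic or intronic was not analysed here. LYAR, a nucleolar protein that promotes cell growth, had 4.19 tags in replicate 2 and no peak in replicate 1.

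The snoRNP proteins had MYC in both libraries at 5 of 7 genes, at a median of 12.5 tags. These proteins form the particles that guide methylation (FBL, NOP56 and NOP58) and pseudouridylation (DKC1, GAR1, NHP2 and NOP10) of ribosomal RNA. NOP58 had 11.9 and 20 tags (15.9 ± 5.73, SD, n = 2) inside the gene. GAR1 had 9.98 and 17.2 tags (13.6 ± 5.11) at 309 and 343 bp downstream of its start. NOP56 had 9.51 and 15.4 tags (12.5 ± 4.16), upstream of its start by 729 and 755 bp, and a smaller peak of 6.59 tags inside the gene in replicate 2 only. DKC1, the pseudouridine synthase dyskerin, had 9.98 and 13.0 tags at 743 and 614 bp.

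The 2 subunits of the methylation and pseudouridylation particles that lacked a replicate 1 peak were FBL, the methyltransferase fibrillarin (4.99 tags in replicate 2), and NHP2 (7.38 tags). NOP10, the smallest signal with both, had 6.18 and 9.18 tags. Within the methylation particle the signal thus differed between FBL and NOP58, 4.99 against 20 tags in replicate 2, in single libraries and without a test.

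Small subunit factors had MYC in both libraries at 10 of 14 genes, at a median of 12.7 tags, and included the gene with the highest mean of the 40. NAT10, which acetylates cytidines of ribosomal RNA, had 26.6 and 39.7 tags (33.2 ± 9.26, SD, n = 2) centred 10 and 13 bp downstream of its start, with replicate 2 at chromosome 11, 34105554 to 34105730. It ranked 10th of the 4950 genes called, and NOLC1 14th. The order of the 2 genes differed between the libraries: NAT10 was higher in replicate 1 (26.6 against 25.7 tags) and NOLC1 in replicate 2 (40.3 against 39.7). PDCD11, a processing factor of the pre-ribosomal RNA, had 26.6 and 31.5 tags (29.1 ± 3.46) at 78 and 83 bp. WDR43, a subunit of the early processing complex, had 15.2 and 19.2 tags (17.2 ± 2.83), at 771 and 766 bp, beyond its E-box.

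Other members of this class differed more between the libraries. HEATR1, which links early processing to ribosomal RNA transcription, had 5.23 and 19.0 tags, the largest ratio between strongest peaks at 3.63 times. That ratio takes the strongest peak of each library, which at some genes, such as NOB1, are different sites. DDX10, an RNA helicase, had 4.75 and 13.8 tags, and BYSL, the assembly factor bystin, 5.7 and 13.0 tags. NOB1, the endonuclease that makes the end of the small subunit RNA, had 16.2 tags at its start in replicate 2. In replicate 1 its start had 4.28 tags and a peak beyond the other end of the gene had 4.75. TSR1 and RRP12, factors of late small subunit maturation, had 9.98 and 16.6 and 11.4 and 15 tags.

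NOP14, a scaffold of the early complex, was the only gene with 5 MYC peaks in replicate 2. Its strongest lay 481 and 450 bp beyond the end of the gene away from its start, with 7.61 and 10.6 tags. At the start itself replicate 2 had 7.78 tags, 5 bp from it and 13 bp from the E-box, and replicate 1 had no peak. The 4 small subunit genes without a replicate 1 peak were UTP20 (9.38 tags in replicate 2), RCL1 (6.59), RRP9 (4.99) and UTP4 (4.19), factors of early processing, and all 4 had an E-box in the promoter. In this class, NAT10, BYSL, WDR43 and NOP14 had an E-box and a peak in both libraries. PDCD11, HEATR1, NOB1, TSR1 and DDX10 had the peaks and no E-box. In the other classes, FBL lacked a replicate 1 peak and had an E-box, while NHP2, RRP1, LYAR, PPAN and NOC2L lacked both.

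Large subunit factors had MYC in both libraries at 10 of 13 genes, at a median of 11.6 tags. NOP16 had 22.8 and 33.7 tags (28.2 ± 7.71, SD, n = 2) centred 41 and 32 bp downstream of its start, with replicate 2 at chromosome 5, 176388478 to 176388654. RRS1 had 12.4 and 21.8 tags (17.1 ± 6.65) within 50 bp of an end of its span. NOP2, which methylates ribosomal RNA, had 12.8 and 17.2 tags, and the assembly factor NIP7 had 6.65 and 16.2.

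PES1, BOP1 and WDR12 form a complex that large subunit maturation requires, and their MYC signals were unlike. PES1 had 9.03 and 23 tags (16 ± 9.88) at 117 and 73 bp downstream of its start, WDR12 had 8.56 and 14.8 tags at 43 and 49 bp, and BOP1 had 4.28 and 5.99 tags. The BOP1 peaks lay at opposite ends of the gene, 31583 bp apart, so no site of BOP1 was found in both libraries. The replicate 1 peak of BOP1, at 3.09-fold over background, had the lowest fold of the strongest peaks.

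Of the remaining large subunit genes, GNL2, a nucleolar GTPase, had 7.13 and 11.8 tags, DDX18, a helicase, 4.28 and 10.2, and MRTO4, which precedes the ribosomal stalk in assembly, 5.23 and 7.58. RRP1 and PPAN had 5.19 and 6.19 tags in replicate 2 only. NOC2L was the only gene with no MYC peak in either library, and the nearest ones were 8079 and 5835 bp from its span, with 4.75 and 3.19 tags in replicates 1 and 2.

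The 10 genes without a replicate 1 peak had at most 9.38 tags in replicate 2, with a median of 5.19 over the 9 that had one there, against a median of 16.9 and a lowest value of 5.99 at the 30 genes with both. The ranges overlap, and the replicate 1 library was the shallower one, so a gene without a listed peak there is not shown to lack MYC. Counting peaks inside the span alone left 25 genes with MYC in both libraries. The farthest MYC peak counted was that of NOB1, 4504 and 4535 bp outside the span in replicates 1 and 2 with 4.75 and 5.99 tags, and the nearest not counted were 7238 bp from RRP12 in replicate 1 (6.18 tags) and that of NOC2L in replicate 2.

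Part of the signal cannot be given to 1 gene. At 13 of the 39 genes (33.3%) the strongest replicate 2 peak lay within 1000 bp of the start or span end of another protein-coding gene, against 2370 of all 10925 genes with a replicate 2 peak (21.7%). The sets differ in peak position. Among genes with an annotated start, that peak lay within 1000 bp of it at 97% of these genes and 46.9% of all. Peaks at starts were not compared alone. PDCD11 shared its peak with ATP5MK, a subunit of the ATP synthase whose start was 234 bp away. NOP16 shared with HIGD2A (185 bp), GNL3 with PBRM1 (181 bp), NOP10 with NUTM1 (175 bp) and NIP7 with COG8 (232 bp). The others were BOP1 with HSF1, WDR12 with CARF, RRP9 with PARP3, BYSL with MED20, UTP4 with CHTF8 and DERPC, LYAR with ZBTB49, MRTO4 with EMC1, and PPAN with ANGPTL6 and the readthrough gene PPAN-P2RY11.

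Some of these genes also carry snoRNA genes, whose RNAs guide the modification of ribosomal RNA. Annotated snoRNA genes lay inside the spans of 9 of the 40 genes (22.5%), against 526 of 20037 genes (2.63%), and there were 27 of them. GNL3 and NOP56 had 5 each, NOP58 had 4, and NCL and WDR43 had 3 each. One of the 9, UTP20, was counted only through a locus without an snoRNA symbol. Of the 9 host genes, 7 had MYC in both libraries, and PPAN and UTP20 had it in replicate 2 only.

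Other ribosome biogenesis genes outside the list behaved similarly at a somewhat lower level. Of 88 such genes, 54 had MYC in both libraries (61.4%) and 49 had it near the start (55.7%), with a median of 10.9 tags over the 54. The RNA exosome, which trims and degrades ribosomal RNA precursors, had MYC in both libraries at 8 of 13 genes (61.5%), with a median of 7.17 tags.

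ATF4 peaks were rare at the 40 genes in every library, and also among all genes. At least 1 ATF4 library had a peak at 5 of the 40 genes, and at 2660 of all 20037 genes. Activated replicates 1 and 2 had an ATF4 peak at 3 genes and 1 gene, and control replicates 1 and 2 at 3 genes and 0 genes. The backgrounds in that order were 3.59, 6.61, 2.5 and 4.59% of all genes, so that 3 of 40 genes are above the background share and 1 and 0 of 40 below it. The mean number of genes with a peak was 2 ± 1.41 in activated and 1.5 ± 2.12 in control cells (SD, n = 2), a difference of 0.5 within the spread of the replicates (two-sided exact permutation test, p = 1, smallest possible 0.333). Leaving out activated replicate 1 or control replicate 2 turned the sign, to -0.5 and -1.

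The 8 ATF4 peaks at these genes had 3.42 to 5.21 tags, and none recurred in another library. DDX21 had 4.81 tags, 1464 bp downstream of its start, in activated replicate 1. DDX10, whose span is long, had 4.81 and 4.41 tags at 5389 and 222768 bp in activated replicate 1 and 3.42 tags at 254614 bp in activated replicate 2. By the rule DDX10 is thus the 1 gene of 40 with a peak in both activated libraries (background 1.41%), but at different sites, and 0 of 40 had one in both control libraries (background 0.624%). NOP14 had 5.21 tags in activated replicate 1 and 4.91 tags in control replicate 1, at separate sites 13011 and 3001 bp downstream of its start. RRS1 and PPAN had 4.91 tags each in control replicate 1 only. None of the 8 peaks overlapped an ATF4 peak of another library or a MYC peak.

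The highest of these ATF4 values, 5.21 tags, exceeded 53.4% of the peaks in its list, and the others stood at or under the median of theirs (4.81, 3.62 and 5.36 tags in activated replicate 1, activated replicate 2 and control replicate 1). Regions that every ATF4 library listed, where the signal of activated and control cells could be compared, numbered 105, and 0 of them lay at one of the 40 genes. Over all 105 regions, 37.1% were called higher and 0% lower in activated cells (limma on log2 of tags + 1, Benjamini-Hochberg adjusted p under 0.05), and no gene described here enters that count. Centring each library on its median over these regions turned the direction, with 0 higher and 9 lower and a median log2 change of -0.11 against 0.54. The replicate block, and leaving out any 1 library, left 0 calls. A change of ATF4 signal with MYC activation could therefore not be measured at any of these genes.

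In activated cells, the number of the 40 genes with a peak was 34.5 ± 6.36 for MYC and 2 ± 1.41 for ATF4 (SD, n = 2 libraries each). The libraries did not overlap, with 30 and 39 genes for MYC and 3 genes and 1 gene for ATF4. Over all 20037 genes they did not overlap either, with 25.9 and 54.5% for MYC and 3.59 and 6.61% for ATF4. The non-overlap is therefore not particular to the 40 genes. For the 40 genes, the two-sided exact permutation test gave p = 0.333, the smallest that 2 against 2 libraries allow. The antibodies and the lengths of the lists differ, so this compares the lists and not the amounts of bound protein. Among the 88 other biogenesis genes, 1 had an ATF4 peak in both activated libraries, where the background was 1.41% of all genes (282 of 20037). It was NOL8, chosen after its values were seen. NOL8 had 8.82 and 11.3 ATF4 tags in activated replicates 1 and 2, and 4.77 in control replicate 2 only. Its MYC signal was 17.6 and 24.9 tags. Whether the NOL8 peaks lie nearer to another gene, or whether its ATF4 and MYC peaks overlap, was not analysed here.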

How the data were processed

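Each ATF4 and MYC sample had 1 peak list on hg38, called per library; the submitters' processing notes name Bowtie 0.12.9 and HOMER. Their settings are not given in the sources used here. Results rest on the signal column of normalized tags, which the authors scaled to 10 M tags. The deposited lists also hold a score, a fraction (focus ratio), folds and p-values over background and surroundings, and total tags, a whole count in replicate 1 lists per the file headers. No peak in the deposited lists exceeded a p-value of 0.05 over background. Depths were 21 M to 24.9 M tags in replicate 1 and 49.8 M to 50.3 M in replicate 2.

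Peaks were assigned with pandas 2.3.3. Spans, starts and promoter sequences were those of RefSeq (GRCh38.p14); a start was given for 79.1% of genes, and otherwise either span end was used. Per gene and library the strongest peak was kept. Named with full values were the 3 strongest genes by MYC in each role class, genes with ATF4, genes lacking MYC in a library and genes sharing a peak; others are given by their tags. Regions of ATF4 were merged at 1 bp overlap and tested with limma 3.58.1 (trend, pseudocount 1), which was tested on simulated data. Folds on log2(value + 1) understate weak changes. The genes and lists were chosen with earlier results of these data known, so shares are set beside all genes and no enrichment was tested.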

Additional observations from a re-analysis of the deposited data

How the results depend on the processing

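The number of genes with MYC in both libraries was 29 with a window of 1000 bp, 25 inside the span and 29 at 4-fold over background or more, and 30 to 39 when 1 library decided. At least 10 tags left 11 genes with MYC, at a median of 19.4 tags by construction, and 0 with ATF4 in both activated libraries. The median MYC signal was 9.27 to 15 tags in single libraries. Genes with MYC near the start numbered 23 to 28 under the other windows and the fold minimum, and 28 to 39 in single libraries. Genes with ATF4 numbered 1 to 3 in single activated libraries. The ATF4 difference between activated and control cells was 0.5, 0.5 and 1 under the tag, fold and window alternatives, and -1 to 2 when 1 library was left out. The excess of MYC over ATF4 was 28 to 37 genes when 1 library was left out, and 19 at 10 tags or more.

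Of the 39 ATF4 regions called higher, 0 were left with the replicate block (smallest limma adjusted p 0.115), and centring each library gave 0 higher and 9 lower (median log2 change 0.54 against -0.11). Leaving out any 1 library gave 0 calls, with 23 to 55 regions higher and 0 or 1 lower in limma at an unadjusted p under 0.05; the lone library of a group is then assumed to vary like the others. The replicate block had 37 higher and 0 lower at that level. The difference of replicate 1 minus 2 correlated at 0.10 between the groups over these regions. A shift common to all regions drops out of that value, and replicate 2 was the deeper library in every group. The value therefore cannot show whether the replicate numbers mark a batch, and no pairing is claimed. The pseudocount, the distance of centres and the filter on low values gave 38 or 39. The lowest listed MYC signal was 3.8 tags in replicate 1 and 2.39 in replicate 2, so sites under 3.8 tags could be listed in replicate 2 only.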
